A study of Rattus norvegicus with 28 samples.

Results

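The 10 genes described here, Gpnmb, Lyz2, Mpeg1, Mrc1, Adgre1, Cd68, Cd163, Clec4a3, Spp1 and Arg1, are transcribed in macrophages and were measured in endothelial cells enriched from rat hearts. All 10 were among the 14217 genes measured. They were chosen by name, with their rise in grafted against normal endothelium already known, so the differences from normal hearts given here are the values that selected them and are a description without a test. Levels are log2 signals, on which a step of 1 is a doubling.

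Hearts of male DA (Dark Agouti) rats had been transplanted into the neck of Lewis rats as allografts, and hearts of Lewis rats into Lewis rats as isografts, with a cuff technique. Endothelium was taken from grafts on days 2, 3 and 4 and from normal, ungrafted DA and Lewis hearts, which made 8 groups of 3 arrays. Leukocytes had been removed from the minced heart with an antibody against CD45 (clone Ox1) and the remaining cells enriched with an antibody against CD31 (clone 3A12) on magnetic beads. Another 4 arrays, 1 of day 2, 2 of day 3 and 1 of day 4, held leukocytes enriched from allografts (labelled strain Lewis). The CD31 enrichment can carry over other cells that bind the antibody. In such bulk preparations more macrophages, more RNA per cell and transcription in endothelial or other cells cannot be told apart.

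Macrophages are phagocytes that settle in the heart before birth and are joined by blood monocytes after injury. They recognize dead cells and debris with surface receptors, digest them in lysosomes, and adjust their secretion and metabolism to the surroundings. In a transplanted heart both ischemia with reperfusion and the recipient's response to the donor draw them into the tissue. Of the 10 genes, Adgre1 encodes the macrophage surface receptor F4/80, and Cd68 encodes a glycoprotein of macrophage lysosomes and endosomes. Mpeg1 encodes perforin-2, a pore-forming protein, and Clec4a3 encodes a C-type lectin receptor. Mrc1 encodes the mannose receptor, and Cd163 the receptor for haptoglobin with hemoglobin. Lyz2 encodes lysozyme, which cleaves bacterial cell walls, and Gpnmb a transmembrane glycoprotein of lysosome-rich cells. Spp1 encodes osteopontin, a secreted ligand of integrins and of CD44, and Arg1 encodes arginase, which splits arginine into ornithine and urea.

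As a description, the DNA in front of the start sites of the 10 genes was searched for short motifs. RefSeq promoter sequences (GRCr8) were held for 9 of them, and the windows of 250 bases before the start site were read. That start site was not always the outer end of the annotated gene. The windows of Clec4a3 and Spp1 lie wholly inside the annotated gene, and those of Lyz2, Mpeg1, Adgre1 and Cd163 overlap its first bases. The core GAGGAA of sites bound by PU.1, a transcription factor of myeloid cells, was found on either strand in 6 of 9 windows, those of Gpnmb, Lyz2, Mrc1, Adgre1, Cd68 and Clec4a3, against 23.3% of 33469 promoters. The M-box CATGTG, a motif of factors of the MITF family, was in 3 of 9 against 12.1%, the E-box CACGTG in 0 of 9 against 5.59%, the AP-1 motif TGAGTCA in 2 of 9 against 4.05% and TATAAA in 1 of 9 against 12.9%. The searched motifs do not overlap in their letters. A match is a description of the letters and not a bound site. The windows of Gpnmb (chr4:79340878-79341127, plus strand), Lyz2 (chr7:54798012-54798261, minus strand) and Cd68 (chr10:54882442-54882691, minus strand) are shown because these genes span a strongly, a broadly and a moderately changed member. They read 5′ to 3′, with GAGGAA or its reverse complement in capitals.
Gpnmb: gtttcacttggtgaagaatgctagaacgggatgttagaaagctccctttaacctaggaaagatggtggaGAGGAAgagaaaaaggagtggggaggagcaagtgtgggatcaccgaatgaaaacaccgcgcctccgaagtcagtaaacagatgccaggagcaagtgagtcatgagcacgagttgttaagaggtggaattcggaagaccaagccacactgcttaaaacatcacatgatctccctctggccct
Lyz2: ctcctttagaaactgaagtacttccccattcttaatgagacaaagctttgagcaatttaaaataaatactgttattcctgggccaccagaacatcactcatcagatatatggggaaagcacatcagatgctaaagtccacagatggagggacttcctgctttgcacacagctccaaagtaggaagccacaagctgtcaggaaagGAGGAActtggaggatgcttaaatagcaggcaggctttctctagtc
Cd68: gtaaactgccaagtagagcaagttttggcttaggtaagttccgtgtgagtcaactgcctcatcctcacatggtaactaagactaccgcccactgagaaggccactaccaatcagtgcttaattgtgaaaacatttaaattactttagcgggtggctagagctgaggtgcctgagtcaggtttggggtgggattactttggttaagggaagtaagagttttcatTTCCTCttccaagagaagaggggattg
Counted from the start site, the capitals lie at -181 to -176 in Gpnmb, -46 to -41 in Lyz2 and, on the reverse strand, -27 to -22 in Cd68. Those of Lyz2 fall within the annotated span of the gene.

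Array medians were 6.51 to 6.59 for the 24 endothelial arrays and 6.83 to 6.88 for the 4 from leukocytes, and the labels do not say whether both sets were normalized together. Array signals carry no counting depth, and 3 arrays per group limit the precision. Pecam1, which encodes CD31, averaged 11.44 to 12.03 in the endothelial groups and 9.51 on the leukocyte arrays. Ptprc, which encodes CD45, averaged 5.45 in Lewis and 5.43 in DA normal endothelium and rose in 5 of the 6 graft groups (limma adjusted p under 0.05; 0.210 in isografts of day 2), to 8.90 in allografts of day 4, against 12.58 in leukocytes. The 14 measured of 17 pan-leukocyte markers averaged 7.20 in Lewis normal endothelium (arrays 7.12 to 7.34) and 7.73, 8.07 and 8.20 in isografts of days 2, 3 and 4, with arrays from 7.52 to 8.45. They averaged 7.08 in DA normal endothelium (7.01 to 7.19) and 8.53, 8.47 and 8.86 in allografts, with arrays from 8.27 to 9.07, and 11.67 in leukocytes. The part of these leukocyte transcripts in the results below was not tested.

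All 10 macrophage transcripts had a higher mean in every graft group than in the normal endothelium of the donor strain. With limma and p-values adjusted over all genes, the number called higher in isografts was 6 on day 2, 9 on day 3 and 9 on day 4, and none was called lower. The background of such calls was 1.06%, 1.8% and 2.61% of all genes for higher and 0.422%, 0.732% and 0.556% for lower. In allografts 9 were called higher on day 2, 7 on day 3 and 10 on day 4, and none lower, beside 3.53%, 1.55% and 7.19% of all genes for higher and 2.45%, 0.724% and 4.26% for lower. Nothing is read from these counts, since the rise was the basis of the choice. The median of the 10 differences was 2.70, 3.17 and 3.39 in isografts and 4.30, 2.59 and 3.85 in allografts, where the median of all genes lay between -0.01 and 0.03. The lowest of the 10 differences was that of Arg1 in isografts and allografts of each day, and the highest was that of Gpnmb.

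**Figure D1:**
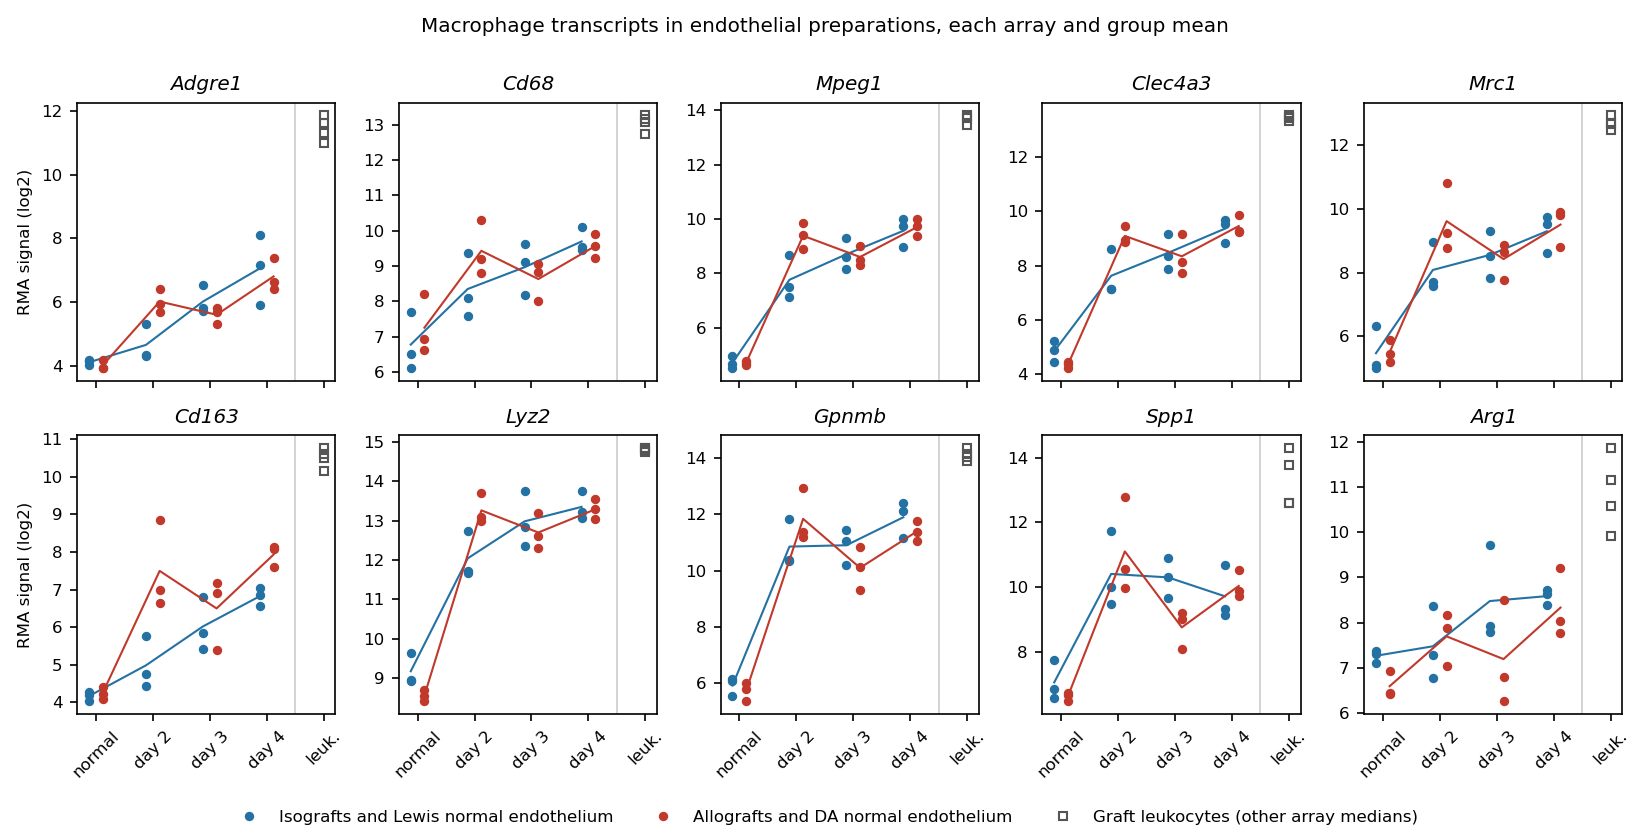
RMA log2 signal (vertical axes, each with its own range) of the 10 macrophage transcripts in normal endothelium, grafts of days 2, 3 and 4 and graft leukocytes; circles are arrays, lines join group means, blue is Lewis and isograft, red is DA and allograft, and open squares are leukocyte arrays, whose array medians are higher. In allografts each mean was lower on day 3 than on day 2, while in isografts 9 of 10 means were higher on day 3 than on day 2.

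Among the surface and lineage transcripts, Adgre1 read 4.02, 4.14 and 4.18 in Lewis normal endothelium and 4.34, 5.31 and 4.32 in isografts of day 2. It read 5.72, 6.53 and 5.80 on day 3 and 8.10, 5.90 and 7.18 on day 4. Lewis normal signals lay near the floor of the arrays, at a mean percentile of 3.83 among all genes. The F4/80 transcript was just above its normal range on 2 of the 3 isograft arrays of day 2 and far above it on every later one. In DA normal endothelium it read 4.18, 3.95 and 3.92, and in allografts 6.40, 5.95 and 5.70 on day 2, 5.83, 5.68 and 5.30 on day 3 and 6.63, 7.40 and 6.40 on day 4. All allograft arrays lay above all DA arrays. The differences from normal were 0.55, 1.90 and 2.95 in isografts and 2.00, 1.59 and 2.79 in allografts (SE 0.39).

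Cd68 of the lysosome had a wide spread in normal endothelium, at 6.10, 7.71 and 6.52 in Lewis and 6.93, 6.63 and 8.20 in DA hearts. It read 7.60, 9.37 and 8.09 in isografts of day 2, 8.17, 9.62 and 9.11 on day 3 and 9.55, 9.45 and 10.09 on day 4. Isograft arrays overlapped the Lewis arrays on day 2 and lay above them afterwards. In allografts Cd68 read 8.80, 9.20 and 10.29 on day 2, 8.02, 8.84 and 9.05 on day 3 and 9.23, 9.91 and 9.56 on day 4, and overlapped the DA arrays on day 3. Its differences were 1.57, 2.19 and 2.92 in isografts and 2.18, 1.38 and 2.31 in allografts (SE 0.51).

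Mpeg1 and Clec4a3 had the most similar profiles of any pair, with a Pearson r of 0.991 over the 24 arrays, which share the change between groups. Mpeg1 read 4.67, 4.50 and 4.96 in Lewis normal endothelium, 7.49, 8.68 and 7.11 in isografts of day 2, 8.17, 9.31 and 8.61 on day 3 and 9.99, 8.95 and 9.74 on day 4. In DA normal endothelium Mpeg1 read 4.78, 4.71 and 4.61, and in allografts 9.41, 8.88 and 9.86 on day 2, 8.5, 8.99 and 8.31 on day 3 and 9.37, 9.74 and 9.98 on day 4. Every graft array lay above every normal array by more than 2 log2 units. The perforin-2 transcript differed from normal by 3.05, 3.99 and 4.86 in isografts and by 4.68, 3.90 and 5.0 in allografts (SE 0.35). A second, dimmer Mpeg1 probe set had means of 4.90 in Lewis normal endothelium and 5.75, 6.26 and 6.99 in isografts, and of 4.92 in DA normal endothelium and 6.69, 6.20 and 6.99 in allografts. Both probe sets thus had a lower mean on day 3 than on day 2 in allografts.

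The lectin transcript Clec4a3 read 4.89, 4.44 and 5.22 in Lewis normal endothelium, 7.13, 8.61 and 7.13 in isografts of day 2, 7.87, 9.17 and 8.36 on day 3 and 9.55, 8.84 and 9.69 on day 4. In DA hearts it read 4.22, 4.45 and 4.37, and in allografts 8.93, 8.88 and 9.45 on day 2, 8.14, 9.17 and 7.71 on day 3 and 9.26, 9.86 and 9.24 on day 4. On day 2 all 3 allograft arrays lay above all 3 isograft arrays. The differences from normal were 2.77, 3.62 and 4.51 in isografts and 4.74, 3.99 and 5.10 in allografts (SE 0.40). Clec4a3 belongs to a family of similar lectin genes, and how far its probe set also binds their transcripts was not tested.

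Of the endocytic receptors, Mrc1 read 4.99, 5.09 and 6.31 in Lewis normal endothelium, 7.58, 8.95 and 7.71 in isografts of day 2, 7.82, 9.31 and 8.53 on day 3 and 9.52, 8.62 and 9.75 on day 4. In DA hearts it read 5.44, 5.18 and 5.87, and in allografts 8.79, 9.25 and 10.81 on day 2, 7.76, 8.87 and 8.64 on day 3 and 9.89, 9.82 and 8.81 on day 4. The mannose receptor transcript was higher on every graft array than on any normal array, with differences of 2.62, 3.09 and 3.83 in isografts and 4.12, 2.93 and 4.01 in allografts (SE 0.52). Cd163 read 4.19, 4.27 and 4.04 in Lewis normal endothelium and 4.43, 5.77 and 4.75 in isografts of day 2, 5.43, 6.79 and 5.83 on day 3 and 7.05, 6.56 and 6.86 on day 4. In DA hearts Cd163 read 4.42, 4.23 and 4.09, and in allografts 6.64, 7.0 and 8.85 on day 2, 5.40, 6.92 and 7.18 on day 3 and 8.14, 7.59 and 8.07 on day 4. The hemoglobin scavenger receptor was the member whose allograft arrays stood apart from the isograft arrays on 2 days: all allograft arrays lay above all isograft arrays on days 2 and 4, as for 5.79% and 6.21% of all genes. Its differences from normal were 0.82, 1.85 and 2.66 in isografts and 3.25, 2.25 and 3.69 in allografts (SE 0.49).

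Of the lysosomal and secreted products, Lyz2 read 8.97, 8.94 and 9.63 in Lewis normal endothelium, 11.67, 12.73 and 11.73 in isografts of day 2, 12.35, 13.76 and 12.84 on day 3 and 13.22, 13.07 and 13.76 on day 4. In DA hearts it read 8.71, 8.43 and 8.56, and in allografts 12.99, 13.10 and 13.69 on day 2, 12.30, 13.19 and 12.61 on day 3 and 13.29, 13.54 and 13.03 on day 4. The lysozyme transcript was above its normal range on all 18 graft arrays, by 2.86, 3.80 and 4.17 in isografts and 4.70, 4.13 and 4.72 in allografts (SE 0.33). RefSeq lists a near copy of this gene, Lyc2, beside it, so the probe set may read both.

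Gpnmb had the highest difference of the 10 in each comparison with normal endothelium. It read 6.15, 5.54 and 6.09 in Lewis normal endothelium, 10.36, 11.81 and 10.39 in isografts of day 2, 10.20, 11.46 and 11.04 on day 3 and 12.13, 11.15 and 12.40 on day 4. In DA hearts it read 6.03, 5.38 and 5.80, and in allografts 11.21, 11.36 and 12.93 on day 2, 10.14, 10.84 and 9.31 on day 3 and 11.38, 11.74 and 11.05 on day 4. All graft arrays were more than 3 log2 units above all normal arrays. Differences from normal were 4.93, 4.98 and 5.97 in isografts and 6.10, 4.36 and 5.66 in allografts (SE 0.48).

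The osteopontin transcript Spp1 read 6.84, 6.56 and 7.76 in Lewis normal endothelium, 9.49, 11.73 and 10.002 in isografts of day 2, 9.68, 10.90 and 10.32 on day 3 and 9.13, 9.32 and 10.69 on day 4. In DA hearts it read 6.73, 6.66 and 6.48, and in allografts 9.97, 10.56 and 12.78 on day 2, 9.0, 9.19 and 8.08 on day 3 and 10.52, 9.72 and 9.87 on day 4. Its mean was highest on day 2 in both graft types, and its day 3 allograft arrays lay below all day 2 allograft arrays. In isografts the order of days 2 and 3 rested on single arrays. With 1 array left out, the Spp1 difference of isograft day 3 against day 2 ran from -0.57 to 0.55. The differences from normal were 3.36, 3.25 and 2.66 in isografts and 4.48, 2.13 and 3.42 in allografts (SE 0.62).

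Arg1 had the lowest difference of the 10 in each comparison with normal endothelium. Small differences were not particular to it, with 0.55 for Adgre1 and 0.82 for Cd163 in isografts of day 2. Arg1 read 7.11, 7.30 and 7.37 in Lewis normal endothelium, 6.77, 8.36 and 7.29 in isografts of day 2, 7.79, 9.71 and 7.93 on day 3 and 8.73, 8.64 and 8.39 on day 4. In DA hearts Arg1 read 6.44, 6.40 and 6.92, and in allografts 7.88, 7.02 and 8.17 on day 2, 6.26, 6.8 and 8.51 on day 3 and 7.77, 8.02 and 9.20 on day 4. Arginase signals of isografts overlapped the normal ones on day 2, and those of allografts on day 3. The differences were 0.21, 1.22 and 1.33 in isografts and 1.11, 0.60 and 1.75 in allografts (SE 0.54). Without the second isograft array of day 2 the first of these became -0.23, and without the third allograft array of day 3 the allograft value of that day became -0.06.

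Mean signals of the 10 transcripts were similar in normal endothelium of both strains, but some lay near the floor of the arrays. The mean percentile among all genes in Lewis and DA ran from 3.83 and 3.63 for Adgre1 to 75.5 and 64.6 for Lyz2. Near the floor, similar signals do not show similar expression. None of the 10 was called different between DA and Lewis, where 1.01% of all genes were. Of the 10, 0 had an unadjusted p under 0.05 in limma (8.29% of all genes). The differences of DA against Lewis ranged from -0.68 for Arg1 to 0.48 for Cd68, with a median of -0.14. Their 95% intervals were wide, at -1.79 to 0.44 for Arg1 and -0.59 to 1.55 for Cd68, so a strain difference of up to about the size of the weaker graft changes was not detectable with 3 arrays. Lyz2 and Arg1 were the members whose DA arrays all lay below the Lewis arrays, as for 8.53% of all genes. The median was -0.27 without replicate 2 of Lewis normal endothelium and -0.04 without replicate 2 of DA.

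On day 2 all 10 transcripts differed more from normal endothelium in allografts than in isografts, but none of the differences passed the adjusted test. Without subtracting normal levels, allograft means of day 2 were also above isograft means for all 10. That direct gap was 1.22 for Lyz2 and 0.22 for Arg1, which read lower in DA than in Lewis normal endothelium. It was 1.08 for Cd68, which read higher in DA. The allograft change minus the isograft change was 2.43 for Cd163 (SE 0.69), 1.97 for Clec4a3 (SE 0.56), 1.83 for Lyz2 (SE 0.47), 1.62 for Mpeg1 (SE 0.50) and 1.46 for Adgre1 (SE 0.56), which were the 5 with an unadjusted p under 0.05. It was 1.51 for Mrc1, 1.17 for Gpnmb, 1.13 for Spp1, 0.90 for Arg1 and 0.60 for Cd68. The adjusted p was 1.00 for each, and 0% of all genes were called. The median of the 10 was 1.48 against 0.02 for all genes, of which 53.8% lay above 0 and 3.38% had an unadjusted p under 0.05. Both changes compared here had selected the members, which also varied together, so nothing is read from the counts of members. The median moved to 1.15 without the third allograft array of day 2 and to 1.87 without the second isograft array of day 2. Ptprc had a difference of 1.49 in the same comparison (SE 0.63, adjusted p 1.00), and of 0.91 on day 3 and 1.20 on day 4. In allografts Ptprc differed by 0.10 from day 2 to day 3, where all 10 members had a lower mean. The part of Ptprc in the member values was not tested.

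On days 3 and 4 the sign of the difference varied among the 10 genes and its median depended on single arrays. On day 3 the difference lay above 0 for 3 of 10 genes, Cd163, Clec4a3 and Lyz2, with a median of -0.24 and a range from -1.12 for Spp1 to 0.40 for Cd163. Without replicate 2 of isograft day 3 that median was 0.11, with 6 of 10 above 0, and without replicate 1 it was -0.50. It was -0.10 and -0.37 without replicates 1 and 2 of allograft day 3, and -0.47 without replicate 3 of Lewis normal endothelium. On day 4 it lay above 0 for 7 of 10, with a median of 0.30 and a range from -0.61 for Cd68 to 1.03 for Cd163 (95% interval -0.41 to 2.46). This median was 0.09 without replicate 2 of isograft day 4, with 5 of 10 above 0, and 0.18 with quantile normalization over genes. It was 0.17 and 0.46 without replicates 3 and 1 of Lewis normal endothelium and 0.46 without replicate 3 of DA. Without subtracting normal levels, the allograft mean was above the isograft mean for 1 of 10 genes on day 3 and 5 of 10 on day 4. In the difference of changes no member was called on either day and none had an unadjusted p under 0.05. Of all genes, 0% were called on day 3 and 0.00703% on day 4.

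In isografts most means were higher on each later day, and Adgre1 rose from day 2 to day 4 by 2.40 (SE 0.39, limma adjusted p 0.0184). It was one of 5 genes called, 0.0352% of all genes. The other 4 were C1qa (2.68) and C1qc (2.13), which encode chains of the complement starter C1q, Cfd (2.79), which encodes complement factor D, and Rarres1 (1.59). The F4/80 call was lost without replicate 1 or 3 of isograft day 2 (adjusted p 0.188 and 0.206) and without replicate 1 or 3 of day 4 (0.187 and 0.180). It was also lost in a fit of only these groups (0.705).

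The other members had positive differences between day 2 and day 4 of isografts except Spp1. The differences were 1.84 for Cd163 (SE 0.49), 1.80 for Mpeg1 (SE 0.35, adjusted p 0.10), 1.73 for Clec4a3 (SE 0.40), 1.35 for Cd68, 1.31 for Lyz2, 1.22 for Mrc1, 1.11 for Arg1 and 1.04 for Gpnmb, and -0.69 for Spp1 (SE 0.62). None of these 9 passed the adjusted test with limma. Their median with Adgre1 was 1.33, against 0.01 for all genes, and 8 of 10 had an unadjusted p under 0.05 against 2.41% of all genes. For 7 genes, namely Adgre1, Mpeg1, Clec4a3, Cd163, Cd68, Lyz2 and Arg1, all isograft arrays of day 4 lay above all of day 2, as for 4.03% of all genes. The steps from day 2 to 3 and from day 3 to 4 had medians of 0.89 and 0.77, no member was called in either, and 0% of all genes were called in each. Without replicate 2 of isograft day 3 the first of these medians was 0.44, and without replicate 1 of isograft day 3 the second was 0.44.

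In allografts the mean of each of the 10 transcripts was lower on day 3 than on day 2 and higher again on day 4, though no step passed the adjusted test. From day 2 to day 3 Spp1 had a difference of -2.35 (SE 0.62, adjusted p 0.347) and Gpnmb of -1.74 (SE 0.48, adjusted p 0.412), and these were the members whose arrays of day 3 all lay below those of day 2, as for 3.79% of all genes. Mrc1 had -1.19, Cd163 -1.0, Cd68 -0.80, Mpeg1 -0.78, Clec4a3 -0.75, Lyz2 -0.56, Arg1 -0.50 and Adgre1 -0.41. The median was -0.79, 4 of 10 had an unadjusted p under 0.05 against 4.75% of all genes, and 0% of all genes were called. The median was -0.56 without the third allograft array of day 2, which read highest in its group for 9 of the 10 genes, and all 10 differences stayed below 0.

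From day 3 to day 4 the allograft differences ranged from 0.59 for Lyz2 to 1.43 for Cd163, with a median of 1.13. Of the 10 genes 8 had an unadjusted p under 0.05, but the lowest adjusted p was 0.419, and 0% of all genes were called (9.14% had an unadjusted p under 0.05). For Gpnmb, Mpeg1, Adgre1, Cd68, Cd163, Clec4a3 and Spp1 all arrays of day 4 lay above all of day 3, as for 4.19% of all genes. Between day 2 and day 4 the median was 0.23 with a range from -1.07 for Spp1 to 0.79 for Adgre1. No member was called there, while 0.38% of all genes were. The sign of this median rested on single arrays: it was -0.05, 0.04 and 0.55 without replicates 1, 2 and 3 of allograft day 2, and 0.06 without replicate 2 of allograft day 4. It was 0.14 with quantile normalization over genes.

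The step from day 2 to day 3 was compared directly between graft types, and all 10 transcripts had a lower value in allografts. The allograft step minus the isograft step was -2.24 for Spp1 (SE 0.87), -2.03 for Cd163 (SE 0.69), -1.79 for Gpnmb (SE 0.68), -1.77 for Adgre1 (SE 0.56) and -1.72 for Mpeg1 (SE 0.50). It was -1.66 for Mrc1, -1.59 for Clec4a3, -1.51 for Arg1, -1.5 for Lyz2 and -1.42 for Cd68. The median of -1.69 stood beside -0.03 for all genes, of which 44.9% lay above 0. An unadjusted p under 0.05 was found for 8 of 10 members and 2.93% of all genes, yet the adjusted p was 1.00 for each member and 0% of all genes were called. This comparison shares its day 2 arrays with the day 2 difference of changes, so the pair are not separate evidence. The median was -1.32 without the third allograft array of day 2 and -2.10 without the second isograft array of day 2.

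Over the step from day 3 to day 4 the allograft step minus the isograft step had a median of 0.27, and was 1.87 for Spp1 (SE 0.87, adjusted p 1.00). It lay above 0 for 10 of 10 genes with all arrays, but for 4 of 10 without replicate 2 of isograft day 3 (median -0.05) and for 6 of 10 without replicate 2 of isograft day 4 (median 0.04). Leaving out other arrays gave medians from 0.15 without replicate 1 of allograft day 3 to 0.63 without replicate 1 of isograft day 3. From day 2 to day 4 the value was below 0 for 10 of 10 genes, with a median of -1.35 and a range from -1.61 for Adgre1 to -0.37 for Spp1. No member was called in either comparison, and 0% and 0.00703% of all genes were. Without the third allograft array of day 2 the latter median was -0.86, with 1 gene above 0.

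**Figure D2:**
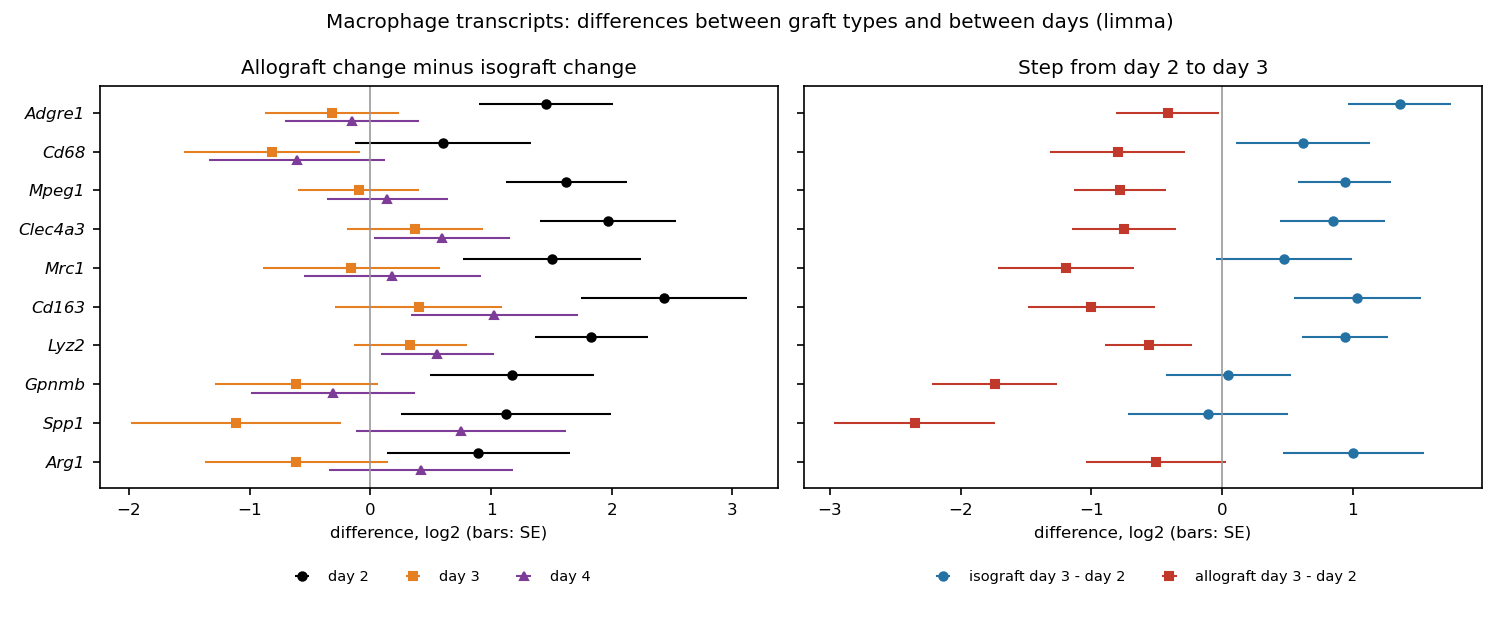
Left, allograft change minus isograft change (log2, horizontal axis) of each of the 10 transcripts on days 2, 3 and 4; right, step from day 2 to day 3 in isografts (blue) and allografts (red); points are limma estimates and bars their SE. All 10 day 2 points lie to the right of 0 in the left panel, and in the right panel all 10 allograft points lie to the left of 0 and of the isograft points.

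The 10 transcripts also varied together among arrays of one group. The second isograft array of day 2 read highest of its 3 for 10 of 10 genes, by a median of 0.90 above the group mean, and the second of day 3 for 10 of 10, by 0.68. The first isograft array of day 3 read lowest for 10 of 10. The third allograft array of day 2 read highest for 9 of 10, by 0.67, with 12.78 for Spp1 and 8.85 for Cd163. Ptprc on these 3 high arrays read 7.87, 8.21 and 8.64, the highest of each group, whereas the median of all genes on them deviated from the group mean by 0.00 to 0.05. The part of leukocyte transcripts in this spread was not tested. Over the 24 arrays, the Pearson r between deviations from the group means had a median of 0.62 over the 45 pairs of genes, from 0.09 for Adgre1 with Cd163 to 0.88 for Lyz2 with Mrc1. These are descriptions over arrays that share preparation and processing.

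**Figure D3:**
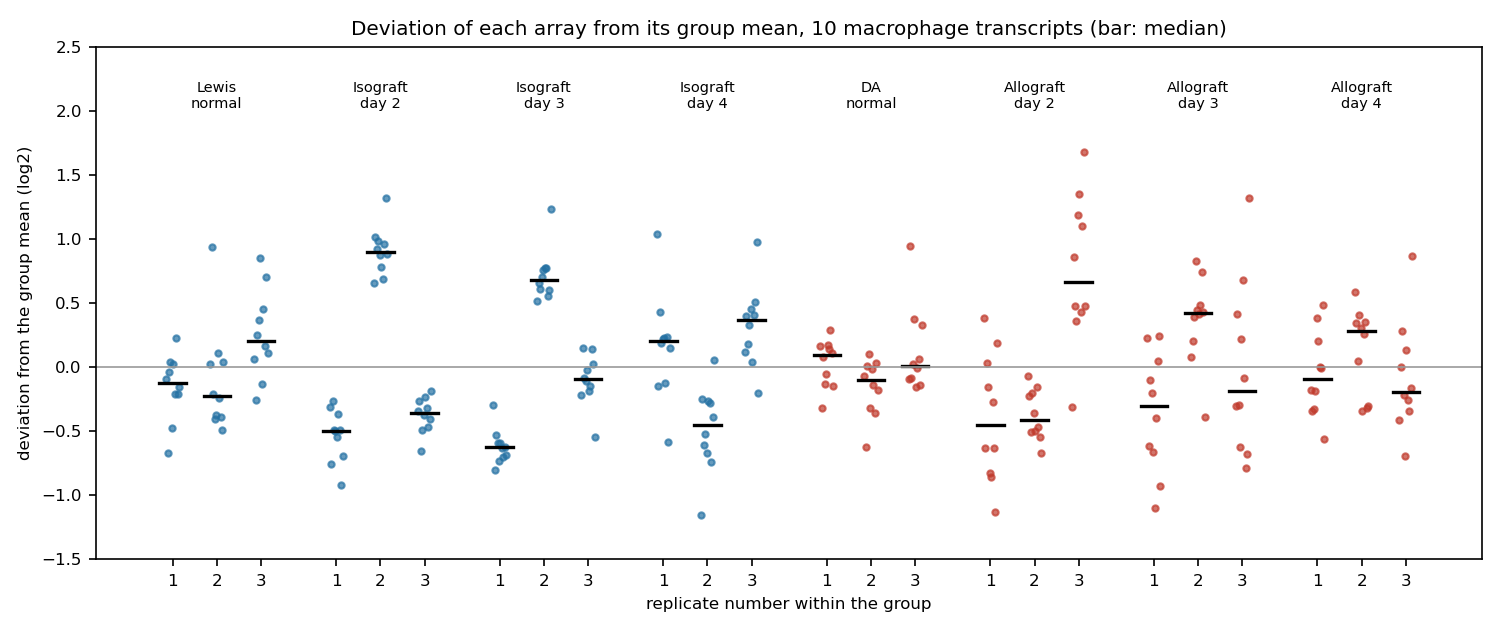
Deviation of each endothelial array from the mean of its group (log2, vertical axis) for the 10 transcripts; each point is a gene, each column an array numbered by replicate, and bars are medians over the 10 genes. The second isograft arrays of days 2 and 3 and the third allograft array of day 2 stand highest, with medians of 0.90, 0.68 and 0.67.

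Leukocytes from allografts held each of the 10 transcripts at a higher mean level than any endothelial group, with the limit that the array medians of both sets differed and no test across them was made. Lyz2 read 14.84, 14.73, 14.84 and 14.78 on the leukocyte arrays of day 2, day 3 (both) and day 4, and had the highest signal of all genes on each. Gpnmb read 14.35, 14.13, 13.90 and 14.01, Mpeg1 13.79, 13.71, 13.46 and 13.81, and Clec4a3 13.52, 13.46, 13.31 and 13.41. These 4 transcripts differed little between leukocyte arrays. Cd68 read 13.26, 13.09, 12.75 and 13.16, Mrc1 12.94, 12.68, 12.69 and 12.49, Adgre1 11.32, 11.64, 11.002 and 11.86, and Cd163 10.61, 10.50, 10.77 and 10.15. Spp1 and Arg1 spread more widely: Spp1 read 14.30 on day 2, 13.79 and 12.61 on day 3 and 12.61 on day 4, and Arg1 read 11.88, then 10.60 and 9.91, then 11.17. With 1 array on days 2 and 4 these day values have no replicate check.

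The leukocyte mean exceeded the mean of the 9 allograft endothelial arrays by 1.72 for Lyz2 to 5.31 for Adgre1, with a median of 3.44 against 0.33 for all genes. For 9 of 10 genes each leukocyte array lay above each allograft endothelial array, as for 34.2% of all genes. The exception was Spp1, for which the third allograft endothelial array of day 2 (12.78) exceeded the lowest leukocyte arrays. For the shares that follow, the medians of both sets were set equal. The Spp1 signal of isograft endothelium was 16.9%, 15.7% and 10.5% of the leukocyte signal on days 2, 3 and 4, against 1.66% in Lewis normal endothelium. In allografts the Spp1 signal was 27.4%, 5.39% and 13.1% of the leukocyte signal, against 1.23% in DA normal endothelium. The Cd163 signal was 2.79%, 5.71% and 9.99% of it in isografts and 15.9%, 7.97% and 21.5% in allografts, against 1.58% in Lewis and 1.67% in DA normal endothelium. The normal Cd163 signals were near the floor of the arrays, at a mean percentile of 4.36 in Lewis and 5.87 in DA. Shares reached 46.9% for Lyz2 in isografts of day 4, and Arg1 stood at 10.4% already in Lewis normal endothelium. Lyz2 had the highest signal of all genes on each leukocyte array. Whether that signal lay at the upper limit of the arrays, which would raise its share, was not tested. All these shares are ratios of array signals and do not measure a fraction of cells.

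The genes whose profiles were most like the mean profile of the 10, by Pearson r over the 24 arrays, were Lgmn (0.992), Fcer1g (0.986), Ms4a6bl1 (0.984), Cd14 (0.983), Ctss (0.979), Cd300c2 (0.979), Lilrb4 (0.978) and Csf1r (0.977). Lgmn and Ctss encode the lysosomal proteases legumain and cathepsin S, Fcer1g the gamma chain of Fc receptors, Cd14 a coreceptor for lipopolysaccharide, and Csf1r the receptor for the macrophage growth factor. Over the 18 graft arrays alone their r was 0.904 to 0.974. Of 14207 other genes 92 (0.648%) had an r above 0.9, and the median r was -0.01. Among the 10 themselves r with the mean profile ran from 0.982 for Mpeg1 down to 0.868 for Spp1 and 0.711 for Arg1.

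Other genes of macrophages were read from lists, beside the shares of all genes called (1.06% to 7.19% higher, 0.422% to 4.26% lower). Of 28 macrophage identity genes outside the 10, 25 were measured, and 7, 16 and 17 were called higher than normal in isografts of days 2, 3 and 4 and 20, 16 and 22 in allografts, with none called lower. Their median difference was 0.80, 1.48 and 2.25 in isografts and 1.95, 1.68 and 2.75 in allografts, and thus was also lower on day 3 than on day 2 in allografts. All 25 were at least 2-fold higher in leukocytes than in allograft endothelium once the array medians were set equal, as were 9.09% of all genes. Fcer1g rose by 2.37, 2.99 and 3.75 in isografts and by 4.2, 3.54 and 4.49 in allografts. Aif1, which encodes an actin-binding protein of macrophages, differed by 1.79 (not called), 2.63 and 3.81 in isografts and by 3.97, 3.27 and 4.58 in allografts. Fcgr2b, an inhibitory Fc receptor, differed by 1.28 (not called), 3.67 and 4.27 in isografts and by 3.78, 3.04 and 4.54 in allografts. Tyrobp, a signaling adaptor, rose by 2.06, 2.53 and 3.10 in isografts and by 3.59, 3.00 and 3.75 in allografts.

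Of 14 measured scavenger and phagocytic receptors, 3, 6 and 8 were called higher in isografts and 9, 3 and 8 in allografts. The lectin receptor Clec10a rose by 2.00, 3.24 and 3.73 in isografts and by 3.58, 3.31 and 4.64 in allografts, while Lyve1, a hyaluronan receptor also found on lymphatic vessels, rose by 2.37, 2.46 and 2.39 in isografts and by 1.89 in allografts of day 2 alone (0.87 and 1.49 on days 3 and 4 were not called). Of 23 lysosome and lipid genes, 6, 8 and 11 were called higher in isografts and 11, 6 and 11 in allografts, with 1 called lower in allografts of day 4. Among them the cholesterol exporter Abca1 rose by 3.14, 3.28 and 3.36 in isografts and by 2.38, 2.13 and 2.28 in allografts. Of 17 genes of alternative activation, a state in which Mrc1, Cd163 and Arg1 are commonly used as markers, 0, 3 and 4 were called higher in isografts and 6, 1 and 7 in allografts, with 1 called lower in allografts of each day. Heme oxygenase (Hmox1), which acts on the heme that Cd163 takes in, rose by 1.54 and 2.56 in isografts of days 3 and 4 and by 2.21, 1.54 and 2.47 in allografts. Of 17 genes of classical activation, 1, 4 and 4 were called higher in isografts and 5, 5 and 9 in allografts, with 1 lower in allografts of days 2 and 4. Their average signal in allografts was not lower on day 3 (8.12) than on day 2 (8.05). The interleukin Il1b rose by 3.03 and 3.24 in isografts of days 3 and 4 and by 4.96, 3.70 and 4.07 in allografts.

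Ligands and receptors around the 10 genes were read too, beside the shares of all genes called that stand above (1.06% to 7.19% higher). Of 11 macrophage growth factors and attractants, 2 were called higher in isografts of each day, the monocyte chemokines Ccl7 (2.63, 3.08 and 3.40) and Ccl2 (2.27, 2.48 and 2.68), and 3, 1 and 4 in allografts. Of the 8 measured receptors of osteopontin none was called on any day in either graft type, with Itga5 at 0.59, 0.23 and 0.58 in isografts and 0.55, 0.04 and 0.71 in allografts.

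Lists of other cells are given beside these values and the shares of all genes called (1.06% to 7.19% higher, 0.422% to 4.26% lower). Of 13 T cell markers 1, 1 and 4 were called higher in isografts and 3, 7 and 13 in allografts, and of 10 cytotoxic lymphocyte markers none in isografts and 0, 3 and 6 in allografts. Of 7 neutrophil markers 3 were called higher in allografts of day 2 and none elsewhere, and of 5 B cell markers none. Of 17 cardiomyocyte markers 4, 9 and 6 were called lower in isografts and 3, 0 and 3 in allografts. Of 16 endothelial markers none was called in isografts, while in allografts 1 was higher and 2 lower on day 2, none on day 3 and 4 lower on day 4. Of 12 fibroblast markers 4 were called higher in isografts of day 4, and 1 and 5 in allografts of days 2 and 4. The part of these cells in the values of the 10 transcripts was not tested.

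**Figure D4:**
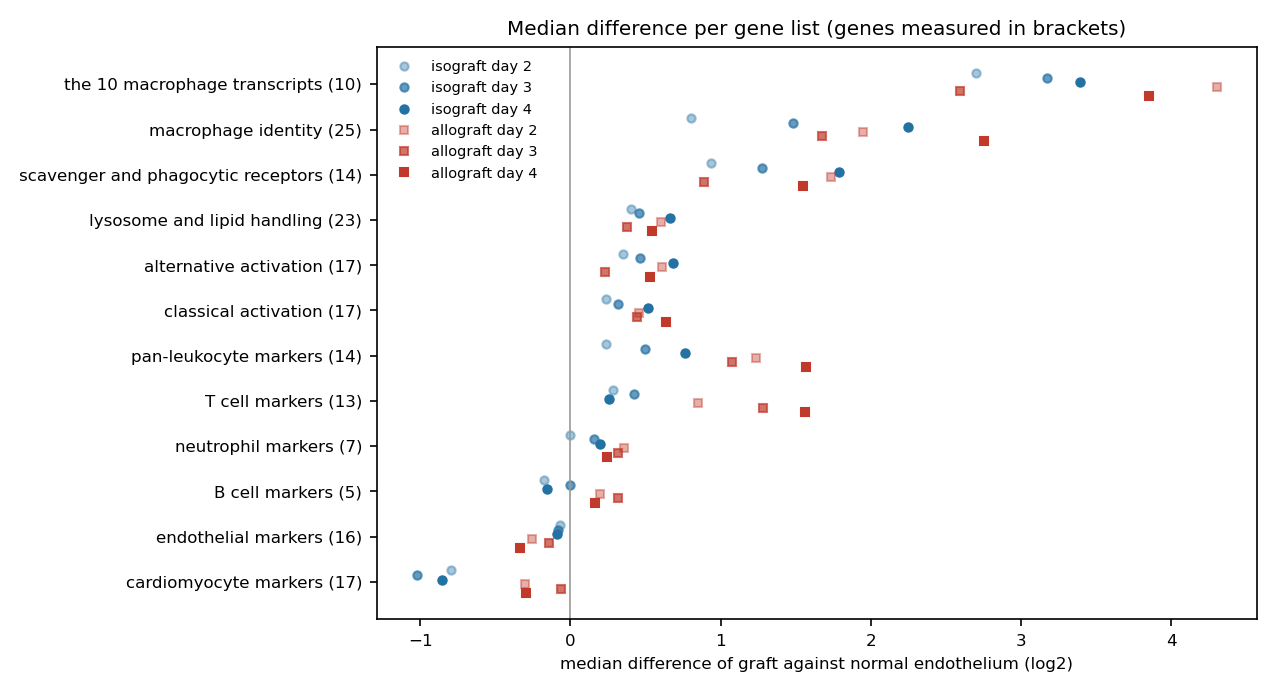
Median difference of grafts from normal endothelium of the donor strain (log2, horizontal axis) for the 10 transcripts and for gene lists, with the number of measured genes in brackets; circles are isografts, squares allografts, and darker points later days. The 10 transcripts, which were selected for this difference, reach 4.30, macrophage identity genes 2.75, and endothelial markers stay between -0.33 and -0.07.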

How the data were processed

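Affymetrix arrays were hybridized with biotin-labelled cRNA from 24 endothelial and 4 leukocyte samples. Each deposited value is a log2 signal of a probe set; RMA and the affy package are named without versions, per the submitters' processing notes. The values were used as they stood, and 0 columns belonged to no sample. Of 31099 probe sets, 57 controls, 436 of several genes and 9780 not listed in the annotation were left out. The remaining 20826 matched 1 gene, 20758 of them with an Entrez identifier in RefSeq, from which symbols were taken. For each gene the probe set with the highest endothelial mean was kept (14217 genes, no filter on dim genes).

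One limma model (version 3.58.1, lmFit and eBayes, in R 4.3.3, tables read with data.table version 1.17.8) gave each of the 8 endothelial groups a mean, leaving 16 residual degrees of freedom and a prior of 4.06. P-values of each of 19 comparisons had a Benjamini-Hochberg adjustment over the 14217 genes, and an adjusted p under 0.05 was called. The 6 comparisons of grafts with normal endothelium had selected the members, and the 13 others were tested, two-sided. These 13 share arrays with the 6, and each allograft change minus isograft change is a difference between selecting comparisons. The members are therefore not a neutral set for them. The members and lists were chosen with earlier results of these data known. Named genes are the 10 members, up to 4 genes per macrophage list by mean absolute difference, and the 8 most similar profiles. Arrays of a group are biological replicates per the labels, which do not tie each to 1 animal, so p-values measure the spread between these samples. The fit was run on simulated data with known changes in randomly drawn genes. It recovered 58% to 80% of changes of 1 log2 unit and 96% to 99% of changes of 2. The simulated noise was independent between genes, whereas the 10 genes varied together, so this gives no detection rate for them. Alternatives were probe set choice, variance prior, dim-gene filter, scaling, fewer groups, a replicate block and leaving out each array.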

Additional observations from a re-analysis of the deposited data

Results flagged for a closer look

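The second Mpeg1 probe set read 9.01 on the second leukocyte array of day 3, far below 11.81 to 12.09 on the other 3 leukocyte arrays, while the Mpeg1 probe set used here read 13.46 on that array. The 4 leukocyte arrays come from 3 days and were checked as 1 set over 11 probe sets; chance alone marks about 1 in 20 such sets.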

How the results depend on the processing

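Of the counts of members called, 275 under the alternatives stayed within 1.5 times the main count, 6 were lower and 2 higher, all of these for isograft day 4 against day 2. There the 1 call (Adgre1) became 0 without the dimmest genes, among them Adgre1, and 0 in a fit of only the groups compared; leaving out 1 array gave 0 to 3 calls. Of the single members' differences from normal endothelium, with Adgre1 in isografts of day 4 against day 2, 739 kept direction and call, 43 lost the call, 2 gained it and 2 changed sign. Calls were also lost within counts that stayed in the range of 1.5 times. With 1 array left out, Cd163 in isografts of day 3 against normal was called in 1 of 6 fits. Adgre1 in allografts of day 3 against normal was called in 0 of 6. Both sign changes in this set were of Arg1: leaving out 1 array gave -0.23 to 0.56 in isografts of day 2 and -0.057 to 1.07 in allografts of day 3. The median gap between leukocytes and allograft endothelium, 3.44, became 3.08 with the medians removed and 3.07 with quantile normalization of all 28 arrays. With the replicate block, Adgre1 kept its call (adjusted p 0.026) and the count stayed at 1; it changed no other count of calls. Same-numbered arrays had a median correlation of deviations of 0.10 (42 of 84 pairs above 0.1). Arrays of other numbers had a median of -0.04 (39 of 168 pairs above 0.1), so a link between same-numbered arrays is possible. The labels do not describe such a link, the main fit did not take the numbers as pairs, and its cause was not tested. In the allograft step from day 3 to day 4 the members with an unadjusted p under 0.05 were 5 with median-centred or quantile-normalized arrays in place of 8. Small uncalled differences between days or graft types also changed sign when 1 array was left out, such as Gpnmb (-0.23 to 0.53) and Spp1 (-0.57 to 0.55) in isografts of day 3 against day 2, Lyz2 in allografts of day 4 against day 2 (-0.11 to 0.24) and Mpeg1 in the day 3 difference of changes (-0.36 to 0.21). The causes were not tested. The SE of a member's difference between 2 groups was 0.33 to 0.62, which limits the detection of smaller differences.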
